A study of Rattus norvegicus with 2 samples.

Results

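Oxidative phosphorylation genes were taken as all rat genes with symbols for nuclear encoded subunits of complexes I to IV and of the ATP synthase, with the complex I assembly factors named Ndufaf. They were found through the accession of each array probe, matched to a RefSeq gene table. A probe was matched to 83 of these genes (105 probes), out of 15159 genes with a matched probe, and all 83 were well above background on at least 1 array. Of the 228 symbols that the same name pattern takes from the table, 108 are pseudogenes, and 82 of the 83 matched genes are protein coding. The other is the transcribed pseudogene Cox6c-ps1. The pattern also takes 37 protein coding symbols without a matched probe, which were not analysed here.

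The aneurysm library came from rat intracranial aneurysm tissue taken 3 weeks after induction (1 array), and the control library from intracranial arterial walls of untreated rats (1 array). The sources used here give no strain, age, sex, method of induction or number of animals for either library. Each group has 1 array, so the differences have no replicate behind them, carry no p-value and describe these 2 libraries. Signals are log2 intensities relative to the 75th percentile of their array. Differences are aneurysm minus control on the log2 scale, followed after ± by a spot error that was derived from repeated spots of an array and includes no variation between animals. The number of arrays limits the precision.

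Oxidative phosphorylation takes electrons from NADH and succinate through complexes I and II, then through complex III and cytochrome c to complex IV, where oxygen is reduced. The proton gradient that complexes I, III and IV build drives the ATP synthase. Most subunits are encoded in the nucleus and expressed in nearly every cell, while a few complex IV subunits have forms typical of heart and skeletal muscle or testis. Smooth muscle of the arterial wall relies on both this pathway and glycolysis for its ATP.

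Promoters of 4 of these genes are shown here, 2 with a higher and 2 with a lower value in the aneurysm library among those whose windows hold a searched motif; they were chosen after their values were seen. The sequences are the 250 bases before the annotated start, read 5′ to 3′ on the gene's strand, from RefSeq on build GRCr8, which is not the build of the array design. Capitals mark matches to motifs of NRF1, ETS factors (CCGGAAG), YY1 (AANATGGCG), MEF2 and an E-box (CAGCTG), searched on both strands.
Sdha, chr1:30764303-30764552, plus strand: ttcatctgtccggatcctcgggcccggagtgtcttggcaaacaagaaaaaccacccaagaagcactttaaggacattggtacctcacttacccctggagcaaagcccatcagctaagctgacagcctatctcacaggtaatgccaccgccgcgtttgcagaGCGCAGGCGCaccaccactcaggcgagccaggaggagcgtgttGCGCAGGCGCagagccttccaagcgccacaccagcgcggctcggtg
Ndufs1, chr9:72073606-72073855, minus strand: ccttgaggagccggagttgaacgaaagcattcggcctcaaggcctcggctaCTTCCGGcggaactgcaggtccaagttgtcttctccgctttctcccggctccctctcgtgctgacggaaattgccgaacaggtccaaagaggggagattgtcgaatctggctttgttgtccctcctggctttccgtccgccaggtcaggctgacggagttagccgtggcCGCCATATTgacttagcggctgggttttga
Cox6a2, chr1:192219717-192219966, minus strand: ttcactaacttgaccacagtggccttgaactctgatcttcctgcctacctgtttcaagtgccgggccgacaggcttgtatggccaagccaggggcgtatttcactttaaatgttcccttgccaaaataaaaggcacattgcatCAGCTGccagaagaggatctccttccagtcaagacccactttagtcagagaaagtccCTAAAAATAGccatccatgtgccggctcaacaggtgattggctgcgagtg
Cox8b, chr1:205408274-205408523, minus strand: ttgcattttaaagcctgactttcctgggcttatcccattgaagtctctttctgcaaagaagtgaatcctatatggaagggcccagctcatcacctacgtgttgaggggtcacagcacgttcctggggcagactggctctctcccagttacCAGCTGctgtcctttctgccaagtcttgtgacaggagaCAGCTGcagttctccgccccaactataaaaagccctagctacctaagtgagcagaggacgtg
The Sdha window held 2 matches to the NRF1 motif, 89 and 46 bases before the start, and the Ndufs1 window an ETS and a YY1 match, 199 and 30 bases before it. The window of Cox6a2 held an E-box match 107 bases before the start and that of Cox8b E-box matches 100 and 62 bases before it, and Cox6a2 a MEF2 match 50 bases before its start. No printed matches overlap each other. Of 73 member promoters in the table, 12 (16.4%) held the NRF1 motif and 21 (28.8%) the ETS motif, against 4.17% and 7.74% of all 27457 promoters and 8.03% and 13.6% of 9704 promoters of measured genes. A YY1 match was in 2 member promoters (2.74%), against 1.45% of all and 2.19% of those of measured genes. An E-box match was in 9 (12.3%), against 11.9% of all and 12.7% of those of measured genes. A MEF2 match was in 1 (1.37%), against 0.572% of all and 0.340% of those of measured genes. The Atp5f1b window, of the gene with the highest difference, held none of these motifs. A match is a description of letters, and its bearing on expression was not tested.

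The measured nuclear genes of oxidative phosphorylation differed little between the aneurysm and control libraries. Their median difference was -0.04, with quartiles of -0.13 and 0.11, against a median of 0.001 and quartiles of -0.21 and 0.19 over all 11902 measured genes. The ATP synthase catalytic subunit gene Atp5f1b had the highest difference (0.59 ± 0.03), and the lowest difference with a signal on both arrays was that of the heart form Cox8b (-0.64 ± 0.29). None of the 83 was higher by 2-fold or more with aneurysm, where 0.882% of all genes were, and 1 was at least 2-fold lower, where 3.91% of all genes were. That gene is Cox8c, whose value rests on 1 spot of the control array. In all, 36 of 83 were above 0, against 50.2% of all genes.

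At a limit of 0.32 on the log2 scale, 6 of 83 were higher, against 13.8% of all genes, and 5 of 83 were lower, against 17% of all genes. These shares of 7.23% and 6.02% lie near those of the 3867 genes with signals between the members' 10th and 90th percentiles, where 8.61% were higher and 7.32% lower. The median absolute difference was 0.12 over the members, 0.15 over genes of that signal range and 0.20 over all genes. The median spot error was 0.05 over the members. A scaling on spike-in probes moved the median of all genes to 0.30 and that of the members to 0.26, and 78 of 83 were then above 0. The members' median stayed between 0.04 below and 0.07 above that of all genes in each of the 12 settings tried.

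**Figure D1:**
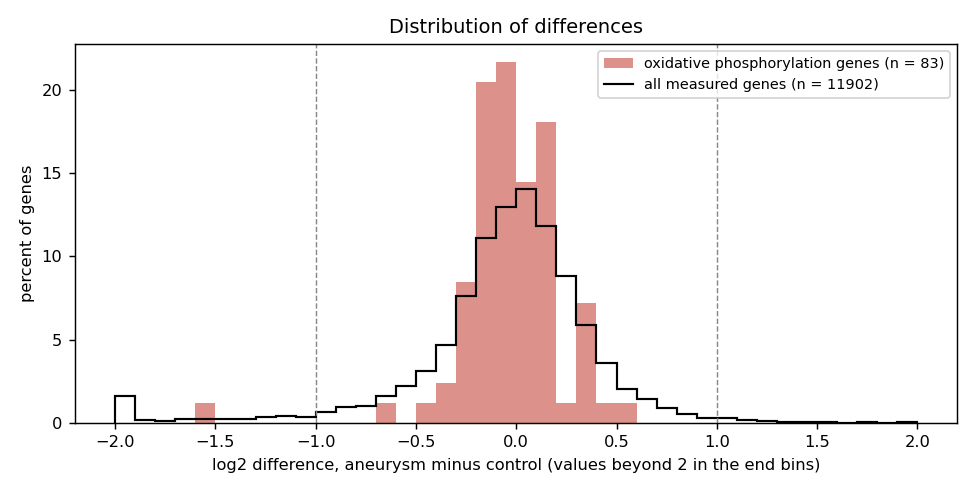
Share of genes (percent, y axis) by log2 difference, aneurysm minus control (x axis, bins of 0.1), for the 83 oxidative phosphorylation genes (filled) and all 11902 measured genes (line), with dashed lines at 2-fold and values beyond 2 drawn in the end bins. The members lie closer to 0 than all genes, with 1 value beyond 2-fold, that of Cox8c, which rests on 1 control spot. With spike-in scaling both medians move above 0.

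The labelled tissue and other tissues were checked by markers. Contractile smooth muscle markers were well above background in both libraries (9 of 9 with a probe, summed linear signal 155 in the aneurysm and 140 in the control library), as were 8 of 8 endothelial markers (18.9 and 17.2). Hepatocyte markers were well above background for 7 of 12 genes in the aneurysm library and 10 of 12 in the control library, with summed signals of 0.586 and 23.2. The markers Cps1 and Tat were not well above background in either. Oligodendrocyte markers (8 of 8 in both) summed to 85.4 in the aneurysm library and 168 in the control library, and neuron markers (9 of 9, and 8 of 9 in the control) to 4.76 and 6.55. Adventitial fibroblast (194 and 181), pericyte (17.6 and 15.4), macrophage (52.4 and 45.6) and astrocyte markers (37.9 and 40.8) were all well above background in both libraries. Without Cspg4 the pericyte sums were 6.64 in the aneurysm library and 6.89 in the control library. Among the 7 pericyte markers 5 were below 0 (median -0.05). Of the fibroblast markers 5 of 8 were higher by at least 0.32 (median 0.42), while Col1a2 was at -0.06, and 8 of 9 macrophage markers were above 0 (median 0.22). Erythrocyte markers (5 of 6 in both) summed to 105 in the aneurysm library and 197 in the control library. Liver, brain, muscle, fibroblasts and macrophages express oxidative phosphorylation genes too, and the part of these cells in the values below was not tested. Fewer cells of a type and less RNA per cell cannot be told apart here.

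Complex I passes electrons from NADH to ubiquinone. Its 7 nuclear encoded core subunits, which carry the flavin, the iron-sulfur clusters and the quinone site, had a median of 0.16 (0.11 to 0.47 over the settings), with 4 of 7 above 0, or 7 of 7 with spike-in scaling. Ndufs8, an iron-sulfur subunit, had signals of 0.76 in the aneurysm library and 0.43 in the control library, a difference of 0.34 ± 0.06. Ndufs1, which carries iron-sulfur clusters of the NADH oxidising arm, had signals of 1.40 in the aneurysm library and 1.07 in the control library, a difference of 0.33 ± 0.06. Both are 1.26-fold higher and stayed above 0 in every setting.

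Other core subunits were closer to 0. Ndufv2, an iron-sulfur subunit beside the flavin site, had a signal of 3.44 in the aneurysm library and 3.19 in the control library (0.25 ± 0.02), and none of its 10 spots in either library overlapped those in the other. Ndufs3, a subunit of the arm that reaches the quinone site, had 1.91 in the aneurysm library and 1.75 in the control library (0.16 ± 0.03), with spots that overlapped. Ndufv1, which binds NADH and the flavin, was at -0.13 ± 0.05, and Ndufs7, an iron-sulfur subunit, at -0.21 ± 0.05. Core subunits of the same complex thus had values on both sides of 0, and Ndufv1 and Ndufs7 turned above it with spike-in scaling (0.17 and 0.10).

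The 25 accessory subunits of complex I, which surround the core, had a median of -0.05, with 12 of 25 above 0. The highest was Ndufa7 (signals of -1.69 in the aneurysm and -2.03 in the control library, difference 0.34 ± 0.12), followed by Ndufa9 (0.19 ± 0.09) and Ndufa2 (0.19 ± 0.06). The lowest were Ndufv3 (-0.22 ± 0.07), Ndufb8 (-0.17 ± 0.02) and Ndufa5 (-0.14 ± 0.05). The 10 spots of Ndufb8 lay below those of the control library without overlap. Its sign, and those of Ndufv3 and Ndufa5, turned with spike-in scaling. Ndufb8 was at -0.09 with loess centring, which removes a trend with signal, and at -0.006 with quantile normalization. Other probes of Ndufv3 were at -0.10 and, with 10 spots, at 0.06, so that its probes differ in sign. The 6 assembly factors, which help build complex I and are no part of the finished enzyme, had a median of -0.07 and lay between -0.15 (Ndufaf7) and 0.04 (Ndufaf5). The dimmer signals of Ndufaf7 carry a spot error of 0.16, and another probe of this gene was at 0.41.

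Complex II, which oxidises succinate and is also an enzyme of the citric acid cycle, is the only complex here with no mitochondrially encoded subunit. Sdha, its flavin subunit, had signals of 2.80 in the aneurysm library and 2.50 in the control library, a difference of 0.31 ± 0.06, and was above 0 in every setting. Sdhd (0.07 ± 0.03) and Sdhc (0.04 ± 0.06), the membrane anchors, and the iron-sulfur subunit Sdhb (-0.06 ± 0.06) were close to 0. The 4 genes had a median of 0.05 (-0.002 to 0.36 over the settings).

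Complex III hands electrons from ubiquinol to cytochrome c. Uqcrfs1, the Rieske iron-sulfur subunit, had signals of 2.07 in the aneurysm library and 1.76 in the control library, a difference of 0.31 ± 0.06. The core subunits Uqcrc1 and Uqcrc2 were at 0.12 ± 0.06 and 0.11 ± 0.06, and all 3 genes stayed above 0 in every setting. Uqcr11, a small subunit, had 4.94 in the aneurysm library and 5.30 in the control library (-0.36 ± 0.07), from 1 spot per array, while its other probes were at -0.10 and -0.08. The small subunits Uqcrq (-0.21 ± 0.13) and Uqcr10 (-0.09 ± 0.07), each from 1 spot per array, were also below 0. Both were above 0 with spike-in scaling, and Uqcr10 was at -0.001 with loess centring and at 0.07 with quantile normalization. The 8 genes had a median of 0.03 (-0.02 to 0.34 over the settings). Cyc1, which encodes cytochrome c1, had no matched probe and was not analysed here.

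Complex IV reduces oxygen. Its 17 measured genes had a median of -0.11 (-0.16 to 0.19 over the settings), and 12 of 17 were below 0. They include Ndufa4, which is named for complex I but is a subunit of complex IV. The median was -0.003 with loess centring and -0.005 with quantile normalization. Among forms of subunits found in nearly all tissues, Cox4i1 had signals of 5.44 in the aneurysm library and 5.65 in the control library (-0.21 ± 0.05), Cox5b was at -0.14 ± 0.05, Cox5a at 0.05 ± 0.06, Cox6a1 at -0.11 ± 0.05, Cox6b1 at 0.01 ± 0.07 and Cox8a at -0.04 ± 0.02. Cox4i1 and Cox7a2 (-0.20 ± 0.05, with another probe at 0.03) lay below the lower quartile of the members, and above 0 with spike-in scaling (0.10 and 0.11), while Ndufa4 was at -0.03 ± 0.05. Cox4i1 was at -0.13 with loess centring and at -0.08 with quantile normalization. The highest values were those of Cox7c (0.36 ± 0.12, from 1 spot per array), Cox7b (0.12 ± 0.03) and Cox7a2l, which takes part in forming supercomplexes (0.08 ± 0.05).

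The forms of complex IV subunits typical of muscle or testis were lower in the aneurysm library. Cox6a2, the form of heart and skeletal muscle, had 0.93 in the aneurysm library and 1.41 in the control library, a difference of -0.48 ± 0.06, or 1.40-fold higher in the control library. Cox8b, another form of heart and skeletal muscle, had -4.74 in the aneurysm library and -4.10 in the control library (-0.64 ± 0.29), and both spots of the aneurysm library lay below both of the control library. Cox6b2, known from testis, had 2.57 in the aneurysm library and 2.94 in the control library (-0.37 ± 0.08), from 1 spot per array. These 3 stayed below 0 in every setting, at -0.18 (Cox6a2), -0.33 (Cox8b) and -0.06 (Cox6b2) with spike-in scaling. Their widely expressed counterparts Cox6a1, Cox8a and Cox6b1 lay between -0.11 and 0.01, and at 0.19, 0.26 and 0.31 with spike-in scaling. With quantile normalization Cox6a1 and Cox8a were also above 0.

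Cox8c, also known from testis, passed the background limit in the control library alone, and there on 1 of 2 spots. Its spots had log2 signals of -7.51 and -8.04 in the aneurysm library and of -7.50 and -3.18 in the control library. The dimmer control spot thus lay at the level of the aneurysm spots, and no fold is given for this gene. It is counted as 2-fold lower because the mean of its control spots (-5.34) lay 1.52 above the lowest signal well above background on the aneurysm array, and with normexp background correction that gap was under 2-fold. Cox4i2, known from lung and raised by low oxygen, was at -0.22 ± 0.06 and turned above 0 with spike-in scaling (0.08). The muscle form Cox7a1 and Ndufa4l2, a complex IV related gene that low oxygen raises, had no matched probe and were not analysed here.

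Markers of muscle stand beside these values. Of 9 skeletal muscle markers with a probe, 6 were well above background in each library, with a summed signal of 0.944 in the aneurysm library and 1.74 in the control library, while Myh1, Myh2 and Myh4, the fast myosin heavy chains, were not well above background in either. Ckm, the muscle creatine kinase, was at -0.77 ± 0.10, Pvalb, which brain interneurons also express, at -2.42 ± 0.10, and Acta1 at 0.59 ± 0.26. Without Pvalb the sums were 0.802 in the aneurysm library and 0.982 in the control library. Of 8 heart muscle markers, 6 were well above background in each library, summing to 34.7 in the aneurysm library and 39.7 in the control library. Without Tnnt2, which carries most of that sum, the values were 1.49 in the aneurysm library and 1.75 in the control library. Among these 6 heart markers 3 were above 0 (median -0.05). They ranged from Actc1 at -0.44 ± 0.07 to Tnni3 at 0.24 ± 0.24. Nppa and Myl2 were not well above background in either. Their part in the values of Cox6a2 and Cox8b was not tested.

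**Figure D2:**
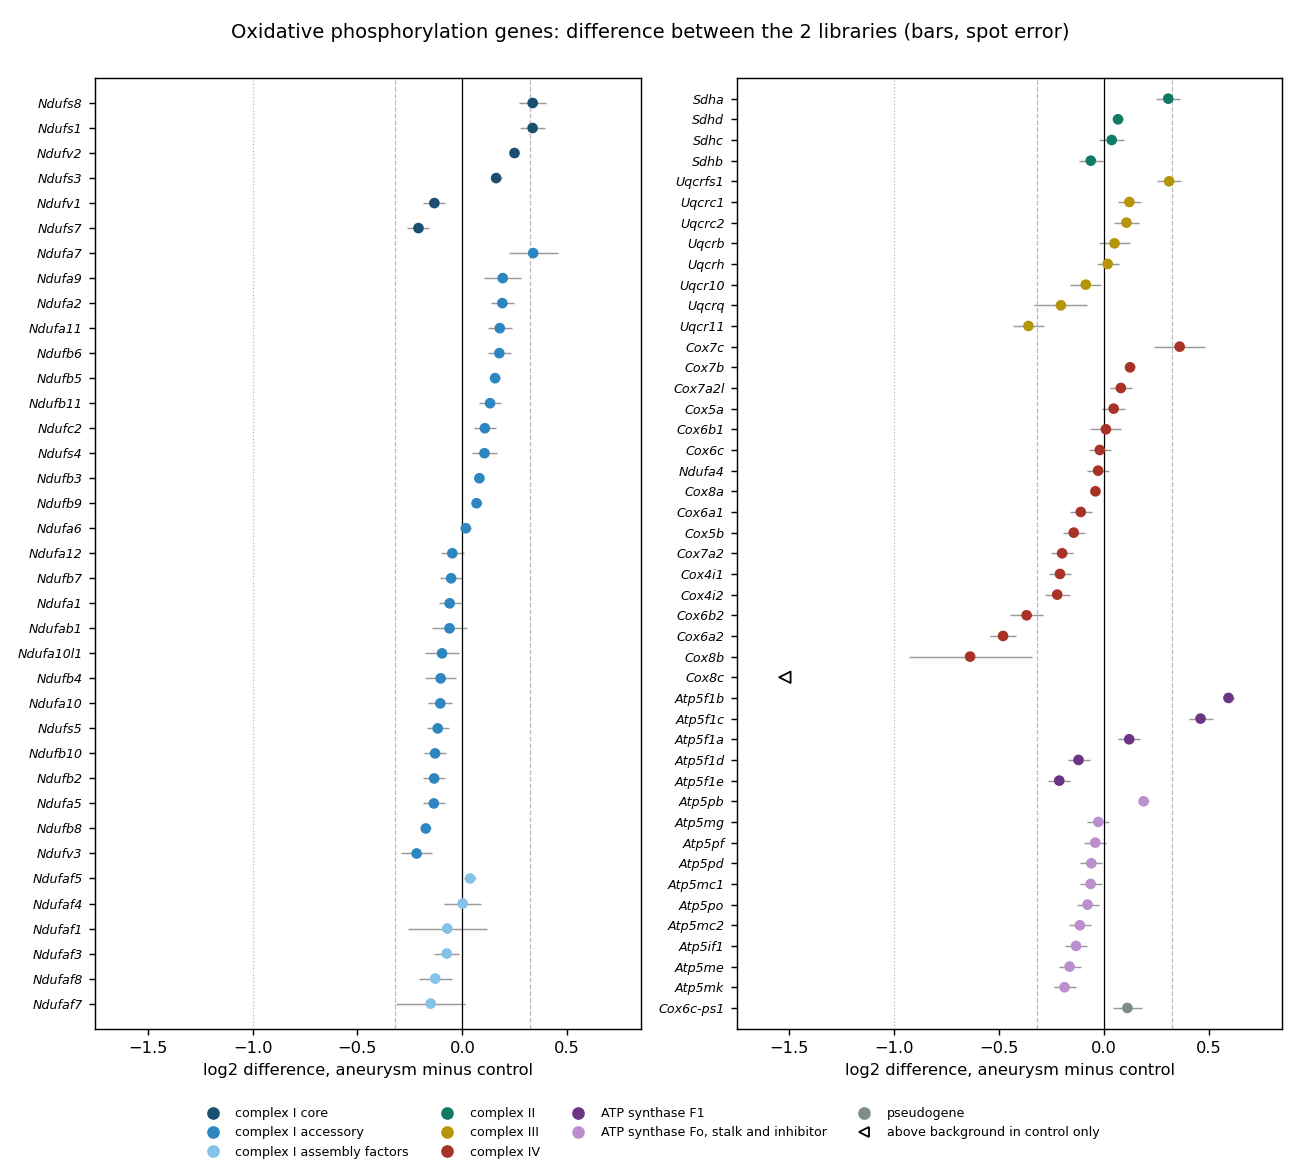
Log2 difference, aneurysm minus control (x axis), of 82 of the 83 genes, by complex, with the spot error as a bar. Dashed lines mark 0.32 in each direction, the dotted line 2-fold lower, and the open triangle the value of Cox8c against the background limit, which rests on 1 control spot. Atp5f1b and Atp5f1c lie highest, and the restricted forms Cox6b2, Cox6a2 and Cox8b lie low. With spike-in scaling 78 of the 83 lie above 0.

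The ATP synthase makes ATP in its F1 head, driven by the turning ring of its membrane part. Atp5f1b, the catalytic beta subunit, had 10 spots per array, with a lowest, median and highest signal of 1.66, 1.77 and 1.88 in the aneurysm library and 1.05, 1.21 and 1.32 in the control library. The spots of the 2 libraries did not overlap, and the difference was 0.59 ± 0.03, or 1.51-fold. Atp5f1c, the gamma subunit of the turning stalk, had 1.87 in the aneurysm library and 1.41 in the control library, a difference of 0.46 ± 0.06, or 1.38-fold.

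Atp5f1a, the alpha subunit that alternates with beta in the head, was at 0.12 ± 0.05, and all 3 genes stayed above 0 in every setting (0.54 to 0.90 for Atp5f1b, 0.41 to 0.77 for Atp5f1c and 0.07 to 0.43 for Atp5f1a). The small stalk subunits Atp5f1d (-0.12 ± 0.05) and Atp5f1e (-0.21 ± 0.05) were below 0, and above it with spike-in scaling (0.18 and 0.09).

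Of the 10 genes of the membrane part, the outer stalk and the inhibitor, 9 were below 0, with a median of -0.07 (-0.12 to 0.23 over the settings). The median was -0.03 with loess centring and -0.01 with quantile normalization. All 10 had mean signals over 2. Among all genes, 47.1% of those with signals between 2 and 4 and 33.1% of those over 4 were above 0. The exception was Atp5pb, subunit b of the outer stalk, at 4.25 in the aneurysm library and 4.06 in the control library (0.19 ± 0.02), whose spots did not overlap between the libraries. The c-ring genes Atp5mc1 and Atp5mc2 were at -0.06 ± 0.05 and -0.12 ± 0.05. Atp5if1, the inhibitor that blocks the enzyme when it would run backwards, was at -0.13 ± 0.05. The lowest were the small membrane subunits Atp5mk (-0.19 ± 0.05, with another probe at -0.04) and Atp5me (-0.16 ± 0.05). Atp5mk and Atp5me were above 0 with spike-in scaling (0.12 and 0.14). Atp5me was at -0.07 with loess centring and at -0.02 with quantile normalization. The c-ring gene Atp5mc3 had no matched probe.

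**Figure D3:**
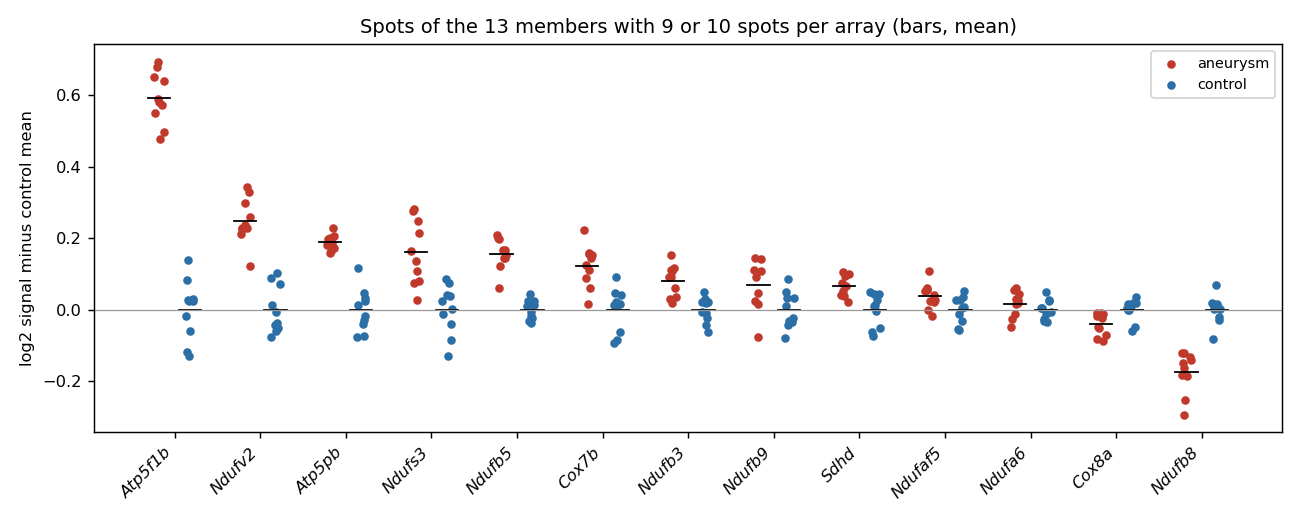
Log2 signal of each spot minus the mean of the control spots (y axis) for the 13 genes with 9 or 10 usable spots per array (x axis), aneurysm left and control right, with bars at the means. The spots of Atp5f1b, Ndufv2, Atp5pb and Ndufb5 lie above those of the control library without overlap and those of Ndufb8 below. With spike-in scaling those of Ndufb8 turn above 0, and with quantile normalization the difference of Ndufb8 is -0.006.

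The share of members above 0 differed between ranges of signal, with no steady order. Of 8 members with a mean signal below 0, 4 were above 0 (median -0.03), against 50.1% of 7339 genes with such a signal. Of 18 members with a mean signal between 0 and 2, 13 were above 0 (median 0.13), against 53.1% of 2426 genes with such a signal. Between 2 and 4, 14 of 33 were above 0 (median -0.05), against 47.1% of 1104 genes, whose median was -0.02. Of 23 members with a signal over 4, 5 were above 0 (median -0.08), against 33.1% of 332 genes, whose median was -0.06. Across the 82 members well above background on both arrays, the Spearman correlation of difference and signal was -0.32, and -0.16 with loess centring, which removes a trend with signal and put 9 of the 23 brightest above 0. It was 0.07 across 11201 genes. The points share their 2 arrays and are not independent. For 16 members with more than 1 usable probe on both arrays, the median gap between the lowest and highest probe was 0.13, probes differed in sign for 6, and none had probes beyond 0.32 in opposite directions. For 38 members the RefSeq table also lists a pseudogene of the same symbol root, 2 for Atp5f1b and 4 for Atp5f1c among them, and a probe could take signal from such copies.

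The medians of other lists of energy metabolism and mitochondrial genes lay between -0.05 and 0.14, with single genes farther from 0. The citric acid cycle list had 12 of 16 genes above 0 and a median of 0.14, with none beyond 0.32 in either direction. Its most different genes were Dld, a shared subunit of 2-oxoacid dehydrogenases (0.29 ± 0.06), and Sucla2, a succinate-CoA ligase subunit (0.29 ± 0.07). Glycolysis genes had a median of -0.03 (7 of 18 above 0). Of these 18 genes 2 were lower by at least 0.32, the aldolase gene Aldoc, typical of brain (-0.49 ± 0.07), and the hexokinase gene Hk1 (-0.33 ± 0.06).

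Genes for electron carriers, ubiquinone synthesis and nucleotide transport had a median of -0.02 (10 of 21 above 0), with Coq10b, a ubiquinone binding protein, at 0.45 ± 0.07 and the electron transfer flavoprotein subunit Etfa at 0.32 ± 0.11. Assembly factors of all complexes outside the Ndufaf genes had a median of -0.03 (13 of 32 above 0), with the complex IV assembly factor Coa5 at 0.73 ± 0.16 and Cox15, of heme a synthesis, at -0.44 ± 0.15.

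Large subunit genes of the mitochondrial ribosome, which translates the mitochondrially encoded subunits, had a median of -0.05 (17 of 42 above 0), with Mrpl3 at 0.58 ± 0.15 and Mrpl51 at -0.48 ± 0.09. Regulators of mitochondrial biogenesis had a median of 0.06 (13 of 19 above 0), led by the mitochondrial DNA polymerase gene Polg (0.31 ± 0.14) and by Mterf3 (0.27 ± 0.09), a factor of mitochondrial transcription. The hypoxia response list had 8 of 11 genes above 0 (median 0.12), with Ndrg1 at 0.60 ± 0.07 and Adm, which encodes adrenomedullin, at 0.35 ± 0.03. The 3 genes below 0 were Epas1 (-0.28 ± 0.06), Vegfa (-0.22 ± 0.06) and Pdk1 (-0.04 ± 0.19). No probe was matched to the 13 mitochondrially encoded subunits, which were not analysed here.

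**Figure D4:**
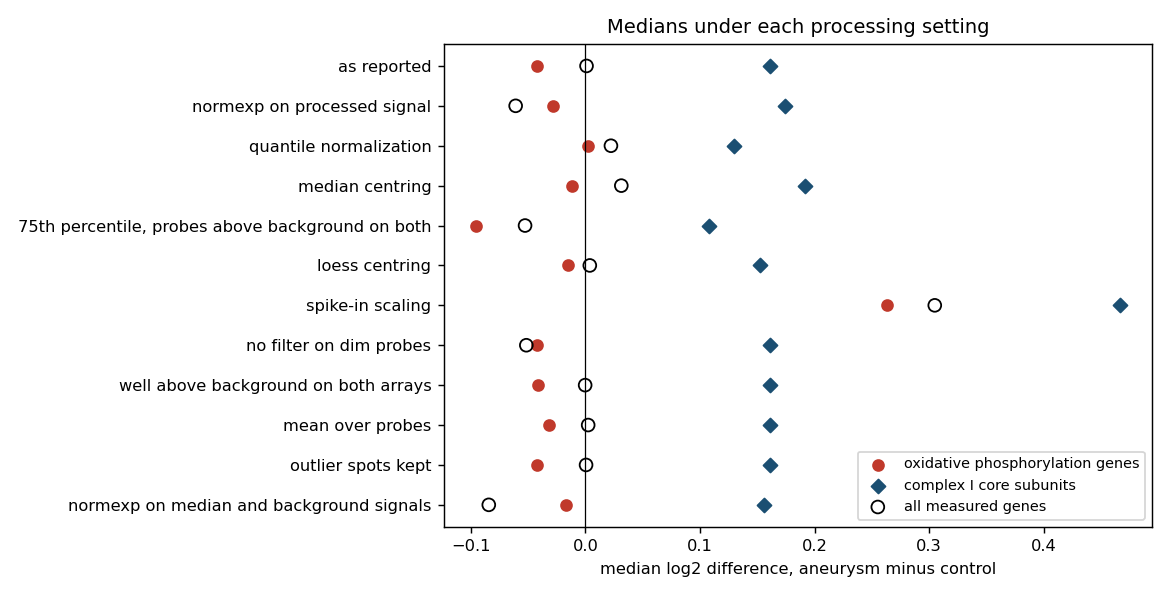
Median log2 difference, aneurysm minus control (x axis), of the 83 members, of the 7 complex I core subunits and of all measured genes under each of the 12 settings (y axis). The members' median lies within 0.07 of that of all genes throughout, and the median of the core subunits lies higher. With the 75th percentile scaling used in the text, 3 of the 7 core subunits are below 0. With spike-in scaling all 3 medians are above 0.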

How the data were processed

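RNA of 1 aneurysm and 1 control library was measured on 1-colour Agilent rat arrays of 1 slide, scanned together, per the file headers. The authors deposited spot intensities from Feature Extraction 10.10.1.1, which had been background-subtracted and detrended within each array, per the file headers. The files also hold flags for outlier, saturated and well above background spots; no spot was saturated. Libraries were grouped by their titles.

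Outlier spots (573 in the aneurysm and 484 in the control library) were left out. Scaling subtracted, on the log2 scale, the 75th percentile of the 58717 non-control spots of each array (801 in the aneurysm, 621 in the control library), and spots were averaged per probe. Probes were named by unversioned RefSeq accession (18006 of 30367 matched 1 gene, 0 several) and each gene took the brightest of its probes that passed the well above background flag on either array, giving 11983 genes, 11902 of them with a difference. A gene above background on 1 array received a bound against the lowest probe well above background. The spot error pools the spot SD over probes of like signal in 20 bins. Well above background were 76.4% of non-control spots in the aneurysm and 74.7% in the control library.

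The members, the gene lists (8 of pathways and 12 of cell type markers) and the alternatives were chosen with earlier results of these data known. Genes are named by a written rule: catalytic core subunits, isoform pairs, the 3 largest differences in each direction per complex, members 1.5-fold different or on 1 array only, and 2 genes per pathway list. Ndufa2, Ndufa5, Ndufa9, Ndufb5, Atp5f1d, Epas1, Vegfa, Pdk1 and other probes of a named gene fall outside it and were chosen after their values were seen. The value of 1 member is not reported here; it stays in the counts and medians. Alternatives set at the start (10) were normexp, 5 other scalings, 2 filters on dim probes, the mean over probes and outlier spots kept. Normexp (limma 3.58.1, offset 50) ran on the processed intensity because the files hold no mean signal, and was added on median and background signals after the files were seen. On simulated spots (11533 genes), genes shifted by 0.5 in either direction were found at the 0.32 limit in 90% of cases (50 genes each), where the simulated spot error allows 92.8% and 92.1%; a first, higher requirement was not met and was replaced by agreement with these shares. Shifts of 1.5 were all found at 2-fold. Both simulated arrays used the control means with a fixed spot SD of 0.12, and the dimmest genes were not shifted. They held no variation between animals, so these shares check the procedure and not how well real differences are found. Python 3.11.15 and statsmodels 0.14.6 were used.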

Additional observations from a re-analysis of the deposited data

How the results depend on the processing

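With 1 array per group, no replicate could be left out. No paired analysis was possible because each group has 1 array. None of the 83 members was at least 2-fold higher under any of the 11 alternatives. The 1 member at least 2-fold lower, Cox8c, was lost, giving 0, with normexp on the processed signal, with normexp on median and background signals, and where genes had to be well above background on both arrays. Spike-in scaling, on 7 probes, gave 78 members above 0 in place of 36, a median of 0.26, 34 members higher by at least 0.32 and 2 lower by it, in place of 6 and 5; all genes moved alike. Scaling on the 75th percentile of probes detected on both arrays moves all genes by the same amount. It gave a median of -0.10 for the members and -0.05 for all genes. With it 2 members were higher by at least 0.32, against 10.8% of all genes. Loess centring gave 3 such members, against 14.2% of all genes, and the cause was not tested. The shares of all genes higher and lower by at least 0.32 were 47.7% and 7.54% with spike-in scaling, against 13.8% and 17%. Over all settings, 28 members were always above 0, 5 always below (Cox6a2, Cox6b2, Cox8b, Cox8c and Uqcr11) and 50 changed sign; leaving spike-in scaling aside, 35 were always below. No member beyond 0.32 turned its sign. Median centring, the second 75th percentile and spike-in scaling each add a constant smaller than 0.32 to all genes. Under these 3 scalings no such member could turn. A value that stayed above 0 in every setting is limited in the same way. The largest downward constant moved the median of all genes only to -0.05. Dim genes such as Cox8b (spot error 0.29) and Cox8c (0.59) are limited by signal over background.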
